A study of Mus musculus with 8 samples.

Results

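The erythropoietin receptor gene Epor and 9 genes for nuclear regulators of red cell development (Gata1, Klf1, Zfpm1, Tal1, Nfe2, Lmo2, Ldb1, Gfi1b and Hemgn) were followed in mouse bone marrow progenitors. They were picked by symbol for what they are known to do, and all 10 were found among the 23282 entries of the count table that carry a gene symbol. The 10 genes and the lists set beside them below were chosen with earlier results of these data known. Counts of passing genes among them are therefore descriptions, not independent of these data. Each library was made from 2000 sorted hematopoietic stem and progenitor cells (HSPCs). Bone marrow labelled Hdc-/-, on a C57BL/6 background, gave 4 libraries, and C57BL/6 marrow labelled WT gave 4. Hdc encodes the enzyme that makes histamine from histidine. The labels do not state the sort markers, age, sex or the altered part of Hdc, nor that samples of a group came from different mice, so the p-values below speak for the spread among these libraries, part of which may be technical.

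Erythroid cells arise from multipotent progenitors as a small set of factors comes to act together. Gata1 and Klf1 bind DNA at most red cell genes, and Tal1 sits beside Gata1 in a complex held together by Lmo2 and Ldb1. Erythropoietin, through its receptor, keeps the committed cells alive while these factors turn on the genes for heme, hemoglobin and the membrane skeleton. Several of the same factors also serve megakaryocytes, and Gata1 is used by eosinophils, mast cells and basophils as well.

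The targeted gene went against its label: Hdc had 740 to 875 reads under the Hdc-/- label and 199 to 275 in WT, a log2 fold change of 1.58 (SE 0.11, edgeR adjusted p = 6.42e-08). The counts are per gene, not per exon, and each direction given below rests on the labels. Of 2 genes that mark early progenitors, Cd34 averaged 1365 ± 23.4 CPM (read counts scaled to library size) with the Hdc-/- label, against 1369.9 ± 36.8 CPM in WT (SD, n = 4 each), and Kit lay at 1405 to 1530.4 CPM with that label, against 806 to 1345 CPM in WT. Total reads per library were 17218697 to 19775106 under the Hdc-/- label and 16322738 to 18054954 in WT. Among 13005 genes tested, 267 (2.05%) were higher and 352 (2.71%) lower with the Hdc-/- label. Markers of other cells moved with the groups too. Summed over 10 neutrophil markers the level was 805 to 1408 CPM with the Hdc-/- label, against 2644 to 4071 CPM in WT (10 of 10 lower). For 8 B cell markers it was 151 to 167 CPM under the Hdc-/- label and 236 to 313 CPM in WT (6 of 7 tested lower), and for 7 mast cell and basophil markers 17.1 to 26.0 CPM under the Hdc-/- label and 91.6 to 144 CPM in WT (2 of 5 tested lower). Of these sums Prss34 alone made up 0 to 0.331 CPM under the Hdc-/- label and 48.3 to 96.2 CPM in WT. Fcer1a, a chain of the IgE receptor, had 0 reads in all 4 libraries labelled Hdc-/-, against 2, 28, 33 and 18 in WT. It was not tested. Cma1, of the same list, went the other way without passing (log2 fold change 0.46, SE 1.09, edgeR adjusted p = 0.866). The sums over 7 eosinophil markers were 8.12 to 36.0 CPM under the Hdc-/- label and 4.70 to 101 CPM in WT (0 of 4 tested passed, 1 with an unadjusted p under 0.05). The 101 CPM was WT 3 alone, with WT 1, 2 and 4 at 8.07, 6.69 and 4.70 CPM. Under the Hdc-/- label Hdc-/- 1 was at 36.0 CPM and the others at 8.12 to 14.3 CPM. Over 10 macrophage markers the sums were 126 to 166 CPM under the Hdc-/- label and 95.8 to 127 CPM in WT (0 passed, 6 with an unadjusted p under 0.05). In RNA from mixed cells, fewer cells of a type and less RNA per cell cannot be told apart, and the part of such cells in the results below was not tested.

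With the Hdc-/- label 2 of the 10 genes rose, Klf1 and Hemgn, and none fell, where a gene passed at an adjusted p under 0.05 over all 13005 genes. By that rule 4.76% of all tested genes passed, 2.05% as higher and 2.71% as lower. An unadjusted p under 0.05 was likewise found for 2 of the 10, against 18.7% of all tested genes. The same 2 were the ones whose groups did not overlap, which held for 12.5% of all tested genes, 5.64% as higher. The median log2 fold change of the 10 was 0.08, beside 0.0041 over all tested genes, and 7 of the 10 lay above 0, beside 50.9% of all. Lmo2 and Gfi1b lie on chromosome 2 as Hdc does, with 123 tested genes between Lmo2 and Hdc and 421 between Gfi1b and Hdc. No exon of the 10 overlaps an exon of another gene in the GENCODE M21 annotation.

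**Figure D1:**
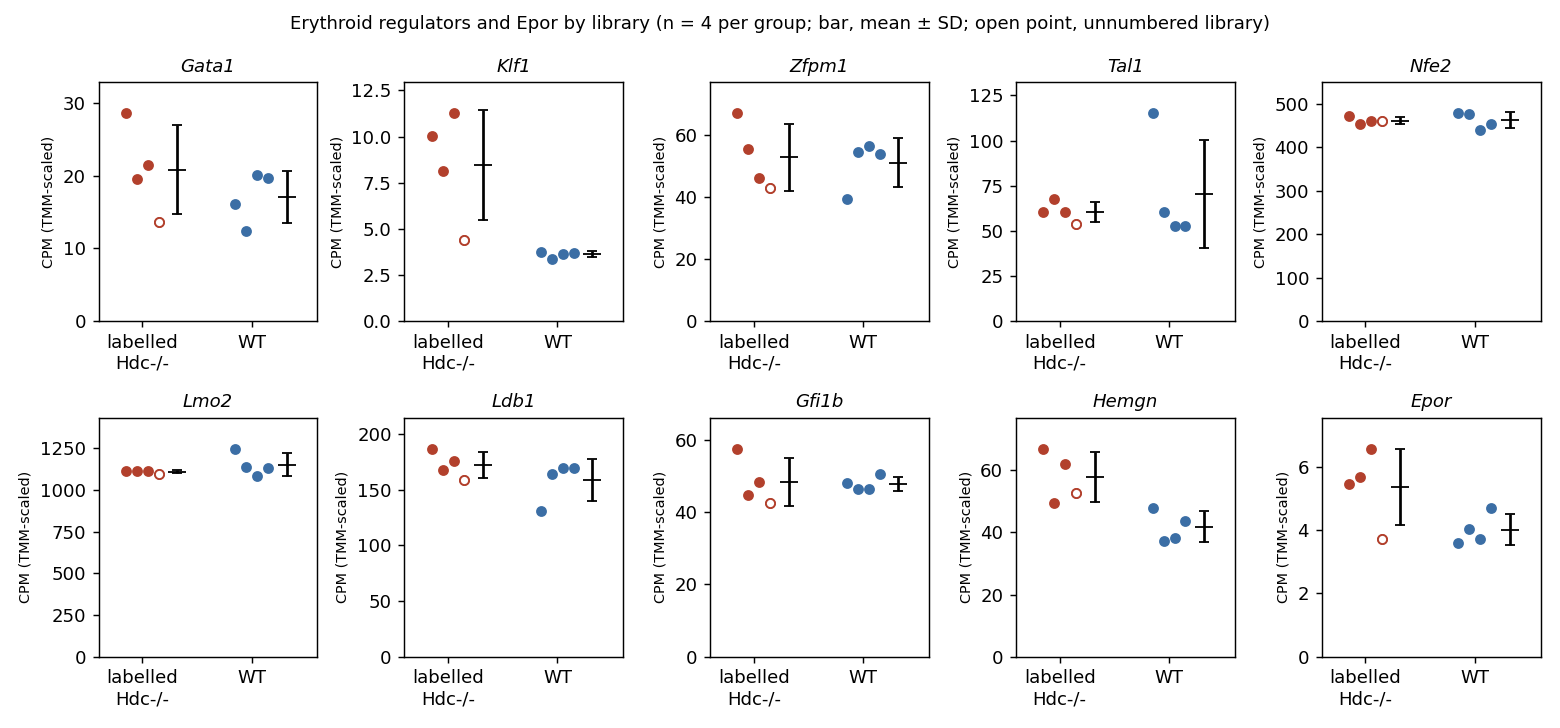
Level of each of the 10 genes in every library, in CPM after TMM scaling, with libraries labelled Hdc-/- left of WT in each panel, every axis starting at 0, and bars for mean ± SD (n = 4 each). Klf1 and Hemgn have no overlap between the groups. The unnumbered library labelled Hdc-/- (open point) is the lowest of its group in 8 of the 10 genes, a share not counted over all genes.

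Per-library values below are given for the libraries labelled Hdc-/-, which are Hdc-/- 1, 2 and 3 and a library with no number, called the unnumbered library, and for WT libraries 1 to 4, always in that order. Klf1 encodes the Krüppel-like factor that turns on adult beta-globin and many other red cell genes. It was at 10.02, 8.12, 11.2 and 4.41 CPM with the Hdc-/- label, against 3.77, 3.38, 3.66 and 3.69 CPM in WT. The WT libraries were nearly alike, while those labelled Hdc-/- were spread, and the unnumbered library, with 76 reads, lay only a little above WT 1, with 65 reads. Means were 8.45 ± 2.99 CPM under the Hdc-/- label and 3.62 ± 0.173 CPM in WT (SD, n = 4 each), a log2 fold change of 1.22 (SE 0.25, edgeR adjusted p = 0.00733). The call held in all 17 alternatives tried, with log2 fold changes from 1.05 to 1.44 and adjusted p from 0.000331 to 0.0438.

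Gata1 is the zinc finger factor named after the DNA motif it binds, and red cells do not mature without it. It was at 28.5, 19.6, 21.5 and 13.7 CPM with the Hdc-/- label, against 16.1, 12.4, 20.1 and 19.7 CPM in WT. The groups overlapped widely, and the unnumbered library lay below every WT library but WT 2. The log2 fold change was 0.29 (SE 0.19, edgeR adjusted p = 0.473), and over the 17 alternatives it ran from 0.10, without Hdc-/- 1, to 0.52, in the fit of libraries 1 to 3 with a block.

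Nfe2 encodes the larger subunit of NF-E2, a factor of globin and platelet genes. It stood at 471, 453, 460.1 and 461 CPM with the Hdc-/- label, against 478, 476, 440.3 and 453 CPM in WT. All 8 libraries lay in this narrow band, with a log2 fold change of -0.0015 (SE 0.05, edgeR adjusted p = 0.992).

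Tal1 encodes a helix-loop-helix factor that blood formation requires. It was at 60.3, 67.4, 60.2 and 54.0 CPM under the Hdc-/- label, against 115, 60.7, 52.9 and 53.0 CPM in WT libraries. WT 1 was high and the other 7 libraries lay close together. The log2 fold change was -0.22 (SE 0.23, edgeR adjusted p = 0.680), and without WT 1 the direction turned, to 0.13 (adjusted p = 0.465).

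The proteins that bridge Tal1 to Gata1 came from genes that did not pass. Lmo2, which touches no DNA itself and joins the factors, was at 1114, 1114, 1111 and 1098 CPM with the Hdc-/- label, against 1245, 1139, 1083 and 1133 CPM in WT. The values labelled Hdc-/- lay inside the WT range, with a log2 fold change of -0.05 (SE 0.05, edgeR adjusted p = 0.643). Ldb1, whose product binds Lmo2 and links distant elements to promoters, was at 187, 168, 176 and 158 CPM under the Hdc-/- label, against 131, 164, 169.6 and 169 CPM in WT libraries. WT 1 was the lowest of all 8, and the groups overlapped. The log2 fold change of Ldb1 was 0.12 (SE 0.08, edgeR adjusted p = 0.490).

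Zfpm1 encodes FOG-1, the partner that Gata1 needs at many of its sites. It was at 66.9, 55.4, 46.1 and 42.9 CPM under the Hdc-/- label, against 39.4, 54.6, 56.4 and 53.7 CPM in WT. The groups overlapped, and WT 1 was again the lowest of all. The log2 fold change was 0.05 (SE 0.14, edgeR adjusted p = 0.887), and it turned to -0.08 without Hdc-/- 1 and to -0.05 without WT 1.

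Gfi1b encodes a repressor that both red cells and platelets need. It was at 57.6, 44.7, 48.3 and 42.7 CPM under the Hdc-/- label, against 48.2, 46.3, 46.4 and 50.5 CPM in WT. The WT values lay inside the range of those labelled Hdc-/-, with a log2 fold change of 0.01 (SE 0.10, edgeR adjusted p = 0.957). It turned to -0.08 without Hdc-/- 1.

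Hemgn encodes hemogen, a nuclear protein of blood progenitors and erythroid cells. It was at 66.9, 49.4, 62.2 and 52.8 CPM with the Hdc-/- label, against 47.9, 37.2, 38.4 and 43.8 CPM in WT. All 4 libraries labelled Hdc-/- were above all 4 WT libraries, with Hdc-/- 2 and WT 1 nearest to each other. Means were 57.8 ± 8.12 CPM under the Hdc-/- label and 41.8 ± 4.97 CPM in WT (SD, n = 4 each), a log2 fold change of 0.47 (SE 0.11, edgeR adjusted p = 0.0206). This call depended on single libraries. The adjusted p was 0.0844 without Hdc-/- 1, 0.0850 without Hdc-/- 3, 0.0803 without WT 2 and 0.0590 without WT 3, at log2 fold changes of 0.39 to 0.43.

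Epor encodes the erythropoietin receptor, which signals through Jak2 and Stat5. Its reads were few, 108, 103, 128 and 64 with the Hdc-/- label, against 62, 66, 67 and 84 in WT. In CPM these were 5.46, 5.69, 6.58 and 3.71 under the Hdc-/- label, against 3.60, 4.05, 3.71 and 4.70 in WT. The 3 numbered libraries labelled Hdc-/- were above all WT libraries, but the unnumbered one was at the WT level. The log2 fold change was 0.42 (SE 0.22, edgeR adjusted p = 0.337), and without the unnumbered library it was 0.56 (adjusted p = 0.215). A difference of this size did not pass at this depth and spread.

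**Figure D2:**
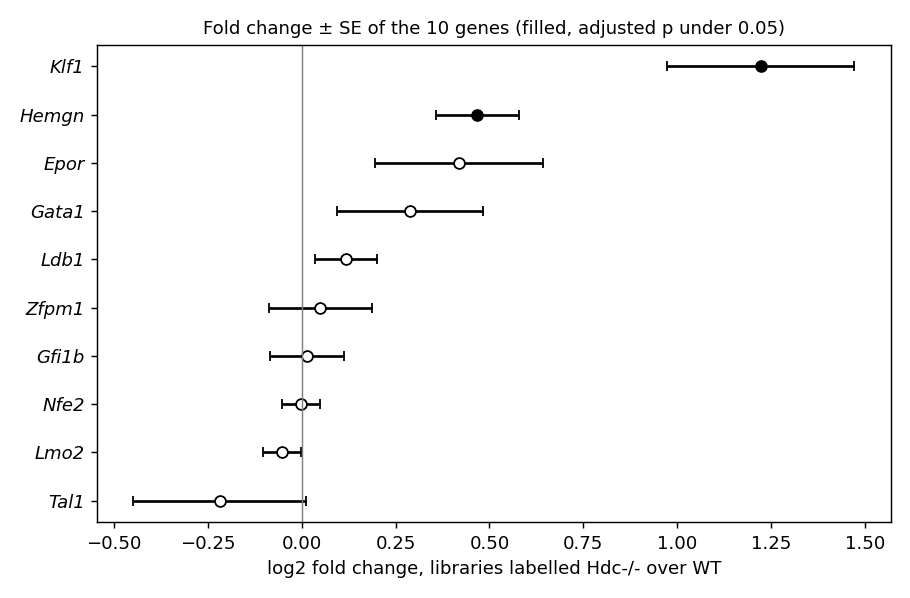
Log2 fold change of each of the 10 genes (x axis), labelled Hdc-/- over WT, with its SE as a bar (n = 4 each). Klf1 at 1.22 and Hemgn at 0.47 passed the threshold (filled points), and the other 8, from -0.22 for Tal1 to 0.42 for Epor, did not.

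The promoters of the 4 genes with the highest log2 fold changes are printed so that the letters near their start sites can be compared. They come from RefSeq on build GRCm38.p6, not the mm9 build of the counts, and each runs from 250 bases before the start to 50 after it. Capitals mark the GATA words, which are AGATAA, the variant word AGATAG, the variant word TGATAA and the variant word TGATAG, together with stretches of the form CCNCNCCC (a CACCC-like motif of the kind Krüppel-like factors bind), on either strand. Klf1 is at chr8:84901732-84902031 (plus strand), Hemgn at chr4:46404134-46404433 (minus strand), Epor at chr9:21963527-21963826 (minus strand) and Gata1 at chrX:7967861-7968160 (minus strand).
Klf1: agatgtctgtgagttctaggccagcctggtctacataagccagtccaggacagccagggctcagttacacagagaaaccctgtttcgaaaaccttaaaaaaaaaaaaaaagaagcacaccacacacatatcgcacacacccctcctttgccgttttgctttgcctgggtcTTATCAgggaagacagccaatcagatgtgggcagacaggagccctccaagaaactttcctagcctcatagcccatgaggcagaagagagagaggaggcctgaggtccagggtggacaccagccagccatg
Hemgn: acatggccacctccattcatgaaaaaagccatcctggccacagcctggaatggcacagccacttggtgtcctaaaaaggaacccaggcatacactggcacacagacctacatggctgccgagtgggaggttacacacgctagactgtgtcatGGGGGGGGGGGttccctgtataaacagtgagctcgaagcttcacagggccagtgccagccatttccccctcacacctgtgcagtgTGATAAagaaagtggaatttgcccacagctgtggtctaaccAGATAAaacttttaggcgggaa
Epor: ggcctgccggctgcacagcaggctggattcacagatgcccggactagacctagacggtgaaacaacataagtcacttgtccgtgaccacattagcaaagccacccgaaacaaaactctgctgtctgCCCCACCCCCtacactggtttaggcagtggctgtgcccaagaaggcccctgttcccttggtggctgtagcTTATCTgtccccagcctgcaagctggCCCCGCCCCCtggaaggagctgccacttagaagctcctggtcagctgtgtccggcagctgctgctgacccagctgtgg
Gata1: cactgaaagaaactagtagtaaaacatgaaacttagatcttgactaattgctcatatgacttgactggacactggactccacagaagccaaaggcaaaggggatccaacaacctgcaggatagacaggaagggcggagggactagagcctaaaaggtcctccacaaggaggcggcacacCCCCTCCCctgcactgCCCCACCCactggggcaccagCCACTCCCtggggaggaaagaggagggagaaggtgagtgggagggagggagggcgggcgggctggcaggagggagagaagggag
The Klf1 window held 1 GATA word, 80 bases before the start, and no CACCC-like match. Hemgn had GATA words 13 bases before the start and at base 29 after it, and its CACCC-like matches all lay inside a run of G. Epor had 1 GATA word 54 bases before the start, with CACCC-like stretches 124 and 28 bases before it, each made of overlapping matches. Gata1 had no GATA word in this window and 3 CACCC-like matches. RefSeq promoters were found for 8 of the 10 genes, with 11 windows in all. A GATA word was in 6 of the 11 windows and a CACCC-like match in 9 of the 11, while 29.8% and 49.5% of all 32851 promoter windows hold them. A match to TGANTCA, the core of the NF-E2 site, was in 0 of the 11 and in 7.8% of all windows. These matches describe letters only. Klf1, Hemgn and Epor each held a GATA word, and the part of such words in the levels of these genes was not tested.

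Levels of different genes were compared per kilobase (kb) of the longest coding transcript in GENCODE M21. The annotation behind the counts is not stated, so these lengths may differ from those counted and the levels are approximate. Lmo2 was highest, at 650.1 ± 4.51 CPM per kb under the Hdc-/- label and 674 ± 40.1 in WT (SD, n = 4 each). Nfe2 came next, at 246 ± 4.00 CPM per kb under the Hdc-/- label and 246 ± 9.77 in WT, and then Ldb1, at 54.9 ± 3.83 under the Hdc-/- label and 50.6 ± 5.89 in WT. The gene for the bridging protein Lmo2 thus stood far above those for the factors it joins. Gfi1b was at 26.5 ± 3.62 CPM per kb under the Hdc-/- label and 26.3 ± 1.09 in WT, and Hemgn at 24.5 ± 3.44 under the Hdc-/- label and 17.7 ± 2.10 in WT. Tal1, at 14.4 ± 1.30 under the Hdc-/- label and 16.7 ± 7.11 in WT, and Zfpm1, at 15.6 ± 3.18 under the Hdc-/- label and 15.1 ± 2.31 in WT, followed. Gata1 was below these and Klf1 and Epor came last. Gata1 was at 10.9 ± 3.22 CPM per kb under the Hdc-/- label and 8.97 ± 1.89 in WT, Klf1 at 5.52 ± 1.95 under the Hdc-/- label and 2.37 ± 0.113 in WT, and Epor at 3.04 ± 0.680 under the Hdc-/- label and 2.28 ± 0.280 in WT. In WT, the neighbours in this order whose libraries overlapped were Hemgn and Tal1, Tal1 and Zfpm1, and Klf1 and Epor. Tal1 and Zfpm1 changed places between the groups, and no other neighbours did. That change rested on WT 1: over WT 2 to 4 Tal1 averaged 13.2 and Zfpm1 16.2 CPM per kb, in the order found under the Hdc-/- label. Klf1 and Epor, at 2.34 and 2.36 CPM per kb over WT 2 to 4, could not be ordered in WT. These means were added after the data were seen.

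Among the libraries labelled Hdc-/-, the unnumbered one was lowest in 8 of the 10 genes, and most of all in Klf1, Gata1 and Epor. How often it was lowest over all tested genes was not counted, so the 8 is given as a description. The unnumbered library had 45.0% of the mean of the other 3 in Klf1, 59.1% in Gata1 and 62.8% in Epor, but 88.8% in Hemgn and 99.9% in Nfe2. In Lmo2, where it was also lowest, it had 98.6%. The same library was low in some of 28 red cell genes known as targets of Gata1 or Klf1. It was the lowest of its group in 12 of the 28. In 7 of the 28 it was under 60% of the mean of the other 3, a limit chosen after the values were seen. Ank1, for the anchor of the membrane skeleton, was at 29.3%, Rhag, for a membrane partner of the Rhesus proteins, at 40.6%, the water channel gene Aqp1 at 46.8%, and the anion exchanger gene Slc4a1 at 58.4%. Other targets were not low in it, membrane genes among them: the spectrin gene Spnb1 was at 113.5%, the protein 4.1 gene Epb4.1 at 97.4%, Alas2 at 114%, Fech at 96.7% and the beta-globin entry Beta-s at 114%. These examples were chosen after the values were seen. Over the 28 targets the median was 93.3%. Their summed level was 4033 CPM in the unnumbered library and 3896.5 to 4118 CPM in the other 3, against 2296 to 2438 CPM in WT. Car2 alone gave 2157 CPM of the sum in the unnumbered library and averaged 1716 CPM in WT. Beta-s gave a further 666 CPM in the unnumbered library, so the sum says little of the targets with low levels.

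**Figure D3:**
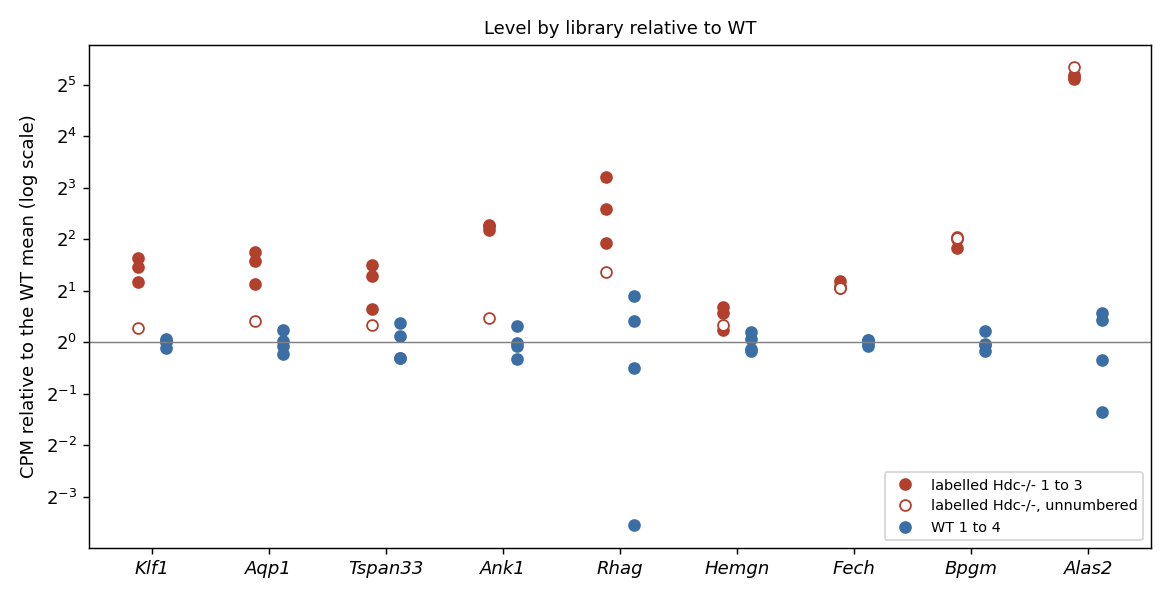
CPM of Klf1, Hemgn and 7 target genes in each library divided by the WT mean of the gene (y axis, log scale), with libraries labelled Hdc-/- left of WT. The unnumbered library labelled Hdc-/- (open) is at 45.0% of the mean of its group's other libraries in Klf1 and at 29.3% in Ank1, but at 114% in Alas2.

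The target genes had larger log2 fold changes than most of the regulators. Of 28 tested targets 21 rose with the Hdc-/- label and none fell, and their median log2 fold change was 2.10, beside 0.08 for the 10 regulators and 0.0041 over all tested genes. Alas2, for the first enzyme of heme synthesis in red cells, averaged 153 ± 10.5 CPM under the Hdc-/- label and 4.16 ± 2.10 CPM in WT (log2 fold change 5.21, SE 0.25, edgeR adjusted p = 9.49e-08). Bpgm, for the enzyme that makes bisphosphoglycerate, was at 112 ± 7.26 CPM under the Hdc-/- label and 28.5 ± 3.37 CPM in WT (log2 fold change 1.98, SE 0.09). Fech, for the last heme enzyme, was at 188 ± 8.27 CPM under the Hdc-/- label and 87.6 ± 3.16 CPM in WT (log2 fold change 1.10, SE 0.06). All 3 kept their calls in 17 of 17 alternatives, and 7 of the 28 targets did not pass.

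Genes for partners and inhibitors of the Tal1 and Gfi1b complexes included 1 that rose and 1 that fell among 15 tested, and the list's median log2 fold change was 0.04. Runx1, for a factor of stem cells and platelets, was at 149, 148, 151 and 165 CPM under the Hdc-/- label, against 109.8, 126, 137 and 135 CPM in WT (log2 fold change 0.27, SE 0.08, edgeR adjusted p = 0.0484). The groups did not overlap, but the call was lost in 10 of 17 alternatives. Id3, for an inhibitor of the helix-loop-helix partners of Tal1, was low throughout, at 1.67, 2.93, 2.62 and 2.96 CPM under the Hdc-/- label, against 7.78, 4.54, 5.43 and 4.36 CPM in WT (log2 fold change -1.12, SE 0.27, adjusted p = 0.0214). It lost its call in 4 of 17 alternatives.

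None of 18 other factors of red cells or megakaryocytes passed in the main edgeR fit, although 5 had an unadjusted p under 0.05. In the alternatives 2 passed in DESeq2 and 1 in limma-voom. With upper-quartile scaling or minimum count 50, edgeR passed 1 each. Etv6, for an ETS family repressor, had the smallest p, at 597 to 634 CPM under the Hdc-/- label and 491 to 574 CPM in WT (log2 fold change 0.21, SE 0.06, edgeR adjusted p = 0.0540). Gata2, which Gata1 replaces as red cells mature, was at 130.2 to 136 CPM under the Hdc-/- label and 107 to 128 CPM in WT (log2 fold change 0.18, SE 0.07, adjusted p = 0.179). The median of this list was 0.09.

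Below the receptor, 2 of 19 tested genes of erythropoietin signalling rose and 1 fell, the list having a median of 0.05 on the log2 scale. Bcl2l1, a survival gene that the receptor induces through Stat5, was at 71.6, 66.3, 73.2 and 71.1 CPM with the Hdc-/- label, against 38.2, 57.6, 50.7 and 55.1 CPM in WT (log2 fold change 0.49, SE 0.11, edgeR adjusted p = 0.0135). The unnumbered library lay among the others in Bcl2l1. The call was lost in 1 of 17 alternatives, without Hdc-/- 3 (adjusted p = 0.0522). Gab1, for an adaptor, was at 45.1 to 50.9 CPM under the Hdc-/- label and 35.0 to 41.0 CPM in WT (log2 fold change 0.37, SE 0.09, adjusted p = 0.0259), and lost its call in 7 of 17 alternatives. Socs2, for an inhibitor that Stat5 induces, fell, with 22.2, 20.8, 23.6 and 23.6 CPM under the Hdc-/- label and 36.5, 38.1, 38.8 and 36.8 CPM in WT (log2 fold change -0.74, SE 0.09, adjusted p = 9.79e-05). Its groups were far apart and the call held in all 17 alternatives. Epo itself had 0 reads in every library.

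Megakaryocyte genes were set beside the regulators that both lineages use, and 2 of 13 tested rose, with a median log2 fold change of 0.31. Gp9, for a platelet glycoprotein, was at 18.3 to 22.7 CPM under the Hdc-/- label and 12.6 to 16.3 CPM in WT (log2 fold change 0.54, SE 0.13, edgeR adjusted p = 0.0191). Gp9 lost its call in 5 of 17 alternatives. Among 9 factors of granulocytes and macrophages Cebpe, which late granulocytes need, fell, at 0.759 to 1.22 CPM under the Hdc-/- label and 2.63 to 3.66 CPM in WT (log2 fold change -1.56, SE 0.32, adjusted p = 0.00730). It stands beside the lower neutrophil markers given above, and the median of that list was -0.17.

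**Figure D4:**
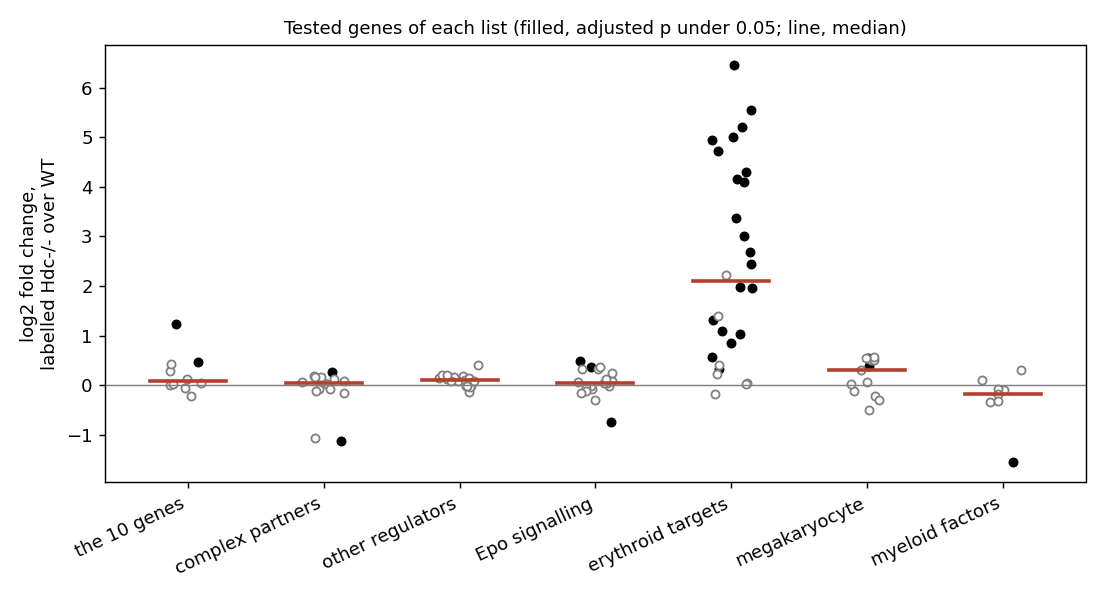
Log2 fold change, labelled Hdc-/- over WT, of each tested gene (points, filled where it passed) in the 10 regulators and 6 further lists, with the median as a line. The target genes have a median of 2.10 with 21 of 28 filled, while the medians of the other lists run from -0.17 to 0.31.

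Ratios within a library need no scaling between libraries, and 3 pairs known as opponents or successors were compared by an exact two-sided permutation test over the 8 libraries. The log2 ratio of Klf1 to Fli1, factors of the red cell and platelet fates, was -4.78 ± 0.616 under the Hdc-/- label and -5.82 ± 0.106 in WT (SD, n = 4 each), higher in 4 of 4 libraries labelled Hdc-/- than in any WT one. Its difference of 1.04 had an exact p of 0.0286, the smallest that 4 against 4 allows. After Benjamini-Hochberg adjustment over the 3 ratios the exact test gave 0.0857, so it did not pass. At the smallest p, 1 ratio alone cannot pass this adjustment whatever its size, so no conclusion is drawn from that outcome. With 1 library left out the ratio of Klf1 to Fli1 passed in 1 of 8 exact tests, without the unnumbered library (difference 1.33, adjusted p = 0.0429). There the ratio of Gata1 to the PU.1 gene, given next, had the same adjusted p, and neither could have passed without the other. In the other 7 the adjusted p was 0.0857 to 0.171. The ratio of Gata1 to the PU.1 gene, listed as Sfpi1, was -2.06 ± 0.465 under the Hdc-/- label and -2.49 ± 0.310 in WT (difference 0.44, exact p = 0.171, adjusted p = 0.257). It passed in 1 of the 8 exact tests with a library left out, without the unnumbered library (difference 0.64, adjusted p = 0.0429). In the other 7 the adjusted p ran from 0.257 to 0.557, and the difference was 0.27 without Hdc-/- 1. The ratio of Gata1 to Gata2 was -2.72 ± 0.425 under the Hdc-/- label and -2.81 ± 0.242 in WT (difference 0.08, exact p = 0.8286, adjusted p = 0.8286). Genes differ in length, so only the differences between groups can be read.

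The genes whose log2 CPM, centred on its mean over the 8 libraries, lay nearest to that of Klf1 were, in order, Aqp1 (root mean square distance 0.16), Fhdc1 (0.17), Tspan33 (0.25), Ank1 (0.26) and Nrip3 (0.27). Likeness was measured over both groups, so the direction of these genes follows from the choice and is given as a description. All 5 passed as higher, with log2 fold changes of 1.31, 1.83, 1.02, 1.96 and 3.14. Fhdc1 lost the call in 5 of 16 alternatives and Tspan33 in 5 of 17. Reads were few in Nrip3, with 30, 26, 34 and 10 under the Hdc-/- label and 3, 3, 0 and 4 in WT. Every WT library was thus below the filter's minimum count of 10 in Nrip3. Fhdc1 had 57, 26, 48 and 18 reads under the Hdc-/- label and 10, 8, 11 and 9 in WT. Aqp1, Tspan33 and Ank1 are among the 28 targets. Nearest to Hemgn were Blvrb, for an enzyme of heme breakdown (0.08), Mblac2 (0.10), C330018D20Rik (0.11), Zfp295 (0.12) and Rpusd2 (0.12). Of these Zfp295 (0.42) and Rpusd2 (0.62) rose, Zfp295 losing the call in 8 alternatives. Blvrb (0.41, edgeR adjusted p = 0.0889), Mblac2 (0.40, 0.114) and C330018D20Rik (0.38, 0.108) did not pass.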

How the data were processed

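RNA from 8 libraries was compared, and SMARTer amplification with Nextera XT, named in the labels, does not mark strand. The authors deposited raw counts of reads per gene symbol. The submitters' processing notes list bcl2fastq 1.8.4, Bowtie2, TopHat2 2.0.4, HTSeq 0.6.1 and build mm9. The annotation and the counting mode are not stated there, so no mm9 coordinates are printed. Without molecular identifiers, amplified copies count as reads.

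The table has 23284 entries, and 2 named only by a number (at most 0.0320% of a library's reads) were dropped. No sample column was left over (0 unused). A single Hdc-/- column could be matched to its group only, hence the name unnumbered library. Genes were filtered with filterByExpr (minimum count 10, minimum total 15), leaving 13005. Testing used edgeR 4.0.16 in R 4.3.3: TMM scaling, robust quasi-likelihood fit of group alone, two-sided, Benjamini-Hochberg adjustment, threshold 0.05. An SE is the size of the log2 fold change over the square root of F. CPM are TMM-scaled, and log2 profiles and ratios add 0.5. Of the 17 alternatives some use DESeq2 1.42.0 or limma-voom (limma 3.58.1), and the code was tested on simulated data. Of 29 target genes listed 28 had an entry, and of 21 signalling genes 20.

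The members and lists were chosen with earlier results of these data known. Named are all 10 regulators, Hdc, up to 4 passing genes per list and direction by p (where none passed, the smallest p), the 5 nearest profiles of each passing regulator and the ratio pairs. Cd34, Kit, Prss34, Fcer1a, Cma1, Epo, Slc4a1, Rhag, Beta-s, Spnb1, Epb4.1, Car2 and Mafk were named outside that rule with their values seen. A few passing genes are left unnamed and not reported here.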

Additional observations from a re-analysis of the deposited data

Results flagged for a closer look

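In each group of 4 libraries the gap between the highest or lowest library and the next was divided by the range and set against Dixon's critical value. Of 82 such groups, for 41 named genes, 10 passed it. Chance gives about 1 in 20, but the count cannot be set against that rate. The genes share the same libraries, and Kit and Mafk, both flagged, were added with their values seen. WT 1 accounts for 6 of the 10. Tal1 was high there, at 115 CPM against 52.9 to 60.7 CPM in the other WT libraries. The remaining 5 genes were low there: Zfpm1 (39.4 CPM, others 53.7 to 56.4 CPM), Ldb1 (131 CPM, others 164 to 169.6 CPM), Kit (806 CPM, others 1269 to 1345 CPM), Fli1 (196 CPM, others 209 to 210.4 CPM) and Mafk (34.01 CPM, others 52.7 to 55.0 CPM), the last for a partner of Nfe2. Among the libraries labelled Hdc-/- the unnumbered one was low in Ank1 (1.16 CPM, others 3.80 to 4.09 CPM) and in Lmo2 (1098 CPM, others 1111 to 1114 CPM), and Hdc-/- 1 was low in Fli1 (209 CPM, others 223 to 224 CPM). Gab1 was high in WT 4 (41.0 CPM, others 35.0 to 35.4 CPM).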

How the results depend on the processing

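Klf1 kept its call under all 17 alternatives, and Hemgn under 12. The count of the 10 genes that rose, 2, was 1 in libraries 1 to 3 with no block, and 1 to 2 with a library left out. Over all genes, 267 higher became 448 in DESeq2, and 137 to 382 with a library left out (352 lower became 242 to 433). The shared numbers of libraries 1 to 3 showed no sign of pairing: correlations of same-numbered deviations were -0.0718, -0.0209 and -0.002. Those of differently numbered libraries ran from -0.0237 to 0.0589, and such values cannot exclude a pairing. With the number as a block 123 genes were higher and 189 lower, against 134 and 211 in the same libraries with no block; there the complex partners had 0 higher and 0 lower with the block and 0 higher without it, signalling 1 higher with it, megakaryocyte genes 1 and 0, and Cebpe was lost (0 lower) with it. The complex partners had 0 higher in limma-voom and without robust estimation, the other factors 2 in DESeq2 and 1 each in limma-voom, upper-quartile scaling and minimum count 50. At minimum count 50 the myeloid factors had 0 lower because Cebpe was filtered out and not tested. With a library left out, complex partners had 0 to 1 higher and 0 to 1 lower, the other factors 0 to 2 higher, signalling 0 to 3, targets 18 to 22, megakaryocyte genes 0 to 3, and myeloid factors 0 to 1 higher and 1 to 2 lower. With a library left out, differences of ratio ran from 0.88 to 1.33 for Klf1 to Fli1 (1.33 without the unnumbered library, passing), 0.27 to 0.64 for Gata1 to PU.1 (0.64 likewise) and -0.073 to 0.27 for Gata1 to Gata2. As differences within numbers 1 to 3, a replicate block, they were 1.33, 0.69 and 0.32. Each had an exact p of 0.25 over flips of sign, the smallest that 3 differences allow, so none could have passed. Directions near 0 turned: with upper-quartile scaling Nfe2 was 0.0055 and Cd34 0.0021, and with a library left out Nfe2 ran from -0.024 to 0.0167, Cd34 from -0.0218 to 0.0093, Gfi1b from -0.081 to 0.0682, Zfpm1 from -0.0842 to 0.1368 and Tal1 from -0.3347 to 0.1261. The cause of these changes was not tested. Epor, with 62 to 128 reads, and Klf1, with 55 to 219, had the largest SE of the 10 beside Tal1.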
